A study of Mus musculus with 6 samples.

Results

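The cytosolic ribosome is built from proteins encoded by the Rpl and Rps genes, and the values below describe these genes in pancreatic islets from control mice and from mice carrying a beta cell knockout of Parn. Members were taken from the gene table by name: Rpl or Rps with a number and an optional a, x, y or l and closing digit, plus Rpsa, Rplp0, Rplp1 and Rplp2. Names marked as pseudogenes, the Rps6k kinases and the mitochondrial Mrp genes were left out. The rule took 89 of 55060 genes, 53 of them for the large subunit and 36 for the small subunit. A mean of at least 0.1 FPKM (fragments per kilobase of gene length, scaled between samples) over the 6 samples was required for testing, and 86 members passed it among 21211 genes. The 3 members that did not pass were Rpl10l, Rpl39l and Rps12l1, which were listed at 0 in at least 5 of the 6 samples.

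The series held 3 control samples (Ctrl) and 3 knockout samples (cKO) of islet total RNA, extracted with TRIzol and made into libraries with a SMARTER mRNA-Seq kit. The cKO mice were Ins2-cre; Parn f/f, with loxP sites around exon 7 of Parn, and the Ctrl group was made of Parn f/f mice and other littermates. The islets were taken at 12 weeks of age, and the comparison asks how gene expression differs between Ctrl and cKO islets. Cre was driven by the Ins2 promoter to remove Parn in beta cells, and Parn in the other cells of the islet was not measured separately. Ctrl samples are not stated to carry Ins2-cre, so that an effect of Cre alone and one of Parn loss cannot be told apart. The labels do not say whether each sample came from a separate animal, and the tests therefore measure the spread between samples only. Reads on genes, read back from the steps of the FPKM values, numbered 17519109, 16470783 and 17143763 in Ctrl and 17064511, 16289408 and 17944775 in cKO. The total to which the deposited FPKM were scaled was 17448159, 15731223 and 16636542 in Ctrl and 17567373, 17386442 and 18085944 in cKO. This scaling total is not a library size: it was below the reads on genes in every Ctrl sample and above them in every cKO sample.

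Each ribosome carries a single copy of most ribosomal proteins, and their mRNAs are among the most abundant of any cell. Most of these mRNAs begin with a C followed by a run of pyrimidines, the TOP sequence, through which mTORC1 and LARP1 control their translation and stability. Beta cells translate insulin mRNA at a high rate and so depend on a large pool of ribosomes, and PARN is a nuclease that shortens poly(A) tails and trims the ends of several small noncoding RNAs.

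The islet label matched the markers. Ins2 averaged 168013 ± 12091 FPKM in Ctrl and 122054 ± 12099 in cKO (SD, n = 3), and all cKO values were below all Ctrl values. Parn itself was listed at 6.64, 8.34 and 7.38 FPKM in Ctrl and at 4.97, 4.61 and 6.15 in cKO. The cKO samples all lay below the Ctrl samples. The log2 difference, or log2 fold change, is cKO minus Ctrl of the mean log2(FPKM + 1), and for Parn it was -0.44 (adjusted p = 0.545 in limma). In these bulk samples, fewer cells of a type and less RNA per cell cannot be told apart. Xist was listed at 24.1, 20.4 and 42.5 FPKM in Ctrl and at 29.9, 39.4 and 0.139 in cKO, and the Y-linked gene Ddx3y at 6.31, 3.17 and 0 in Ctrl and at 1.16, 0 and 9.83 in cKO. Ctrl 1, Ctrl 2 and cKO 1 thus held both RNAs, Ctrl 3 and cKO 2 held Xist alone, and cKO 3 held Ddx3y with Xist near 0. The sex-linked RNAs thus differed between samples within each group, and the labels do not give the sex. Ctrl 3 and cKO 2 are also the pair that crosses in the ribosomal protein sums below, and the part of sex in those values was not tested.

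Ribosomal protein mRNAs were abundant in every sample. The mean over the 6 samples was at least 1 FPKM for 84 members and at least 50 FPKM for 68, and the median member mean was 105 FPKM. Among the 100 genes of highest mean FPKM, 17 were members. Rplp1, an acidic protein of the large-subunit stalk, was the most abundant member at 1143, 1215 and 990 FPKM in Ctrl and 884, 1125 and 1059 in cKO. Rpl41 followed at 804, 817 and 757 FPKM in Ctrl and 688, 814 and 741 in cKO, and Rpl36, Rps3a1 and Rps15 came next. For Rplp1 and Rpl41 the groups overlapped, with cKO 1 the lowest sample. The tested members of lowest level were Rpl3l, the striated-muscle form of Rpl3, with a mean of 0.25 FPKM, Rpl32l with 0.81, Rps10 with 1.09, Rpl24 with 1.35 and Rps3a3 with 1.88. These are levels of the gene alone: 97.2% of the combined reads of Rps10 and 68.9% of those of Rpl24 lay on matched copies, described below.

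The members as a family were lower in mean in cKO islets, and the samples within each group differed. The summed FPKM of the 89 members was 15526, 15078 and 12858 in Ctrl and 11037, 13704 and 12536 in cKO. Ctrl 1 and Ctrl 2 were the highest samples and cKO 1 the lowest, while Ctrl 3 lay below cKO 2, so the groups overlapped. Ctrl averaged 14487 ± 1429 and cKO 12425.5 ± 1337 (SD over 3 samples each), which is a log2 ratio of -0.22. As a percent of all reads on genes, members took 2.35, 2.20 and 1.90 in Ctrl and 1.72, 2.19 and 1.90 in cKO. Ctrl 1 was the highest sample for 45 of the 86 tested members and Ctrl 2 for 29, whereas cKO 1 was the lowest sample for 64. The summed FPKM of the genes encoded in mitochondrial DNA was 31374, 19818 and 19787 in Ctrl and 13397, 14808 and 18671 in cKO. Ctrl 1 was the highest and cKO 1 the lowest sample here too, all cKO samples lay below all Ctrl samples, and the part of this difference in the ribosomal protein values was not tested.

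**Figure D1:**
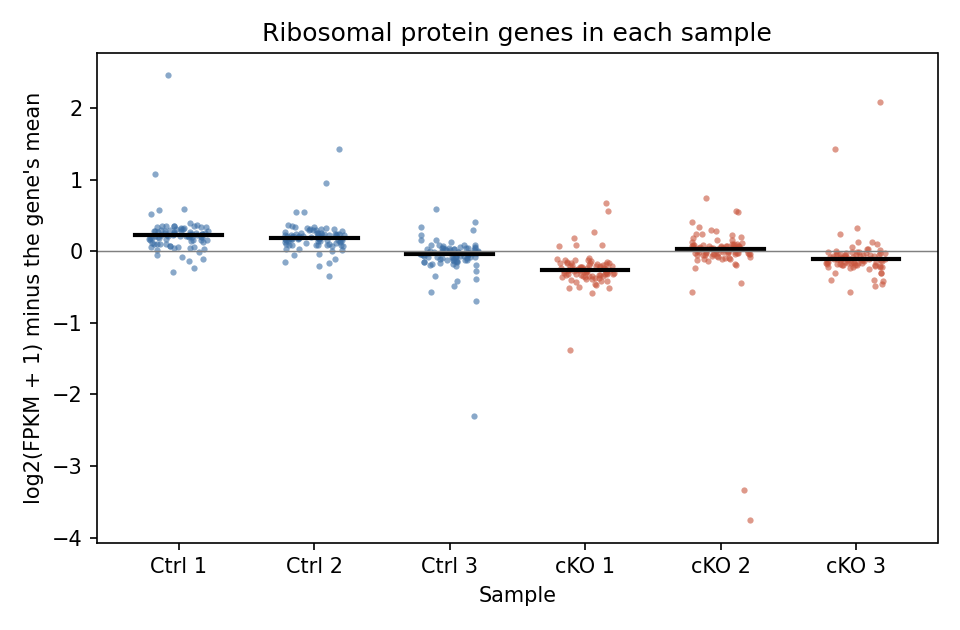
Each point is 1 of the 86 tested ribosomal protein genes, plotted as its log2(FPKM + 1) in a sample minus that gene's mean over the 6 samples, with a black bar at the median of each sample. The points of cKO 1 lie lowest and those of Ctrl 1 and Ctrl 2 highest, while Ctrl 3 and cKO 2 sit near 0.

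The log2 fold change was negative for 81 of the 86 tested members (94.2%), against 53.5% of all genes tested. Its median over the members was -0.25 (quartiles -0.32 and -0.17), against -0.01 over all genes. The sign of the members' median was the same under each scaling: it was -0.16 with FPKM rescaled to the reads on genes and -0.17 with voom on reads read back, where the median of all genes was 0.04 and 0.07 and 76 members were negative. Among 575 other genes with a mean of at least 50 FPKM the median was -0.03, and among the 217 of these shorter than 1500 bases it was -0.08.

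No member passed an adjusted p of 0.05 in limma (0 of 86, background 0% in each direction), and the smallest adjusted p was 0.392 among members and 0.274 among all genes. At an unadjusted p under 0.05, 17 members were lower in cKO (19.8%, background 3.07%) and 1 was higher (1.16%, background 4.33%). Among the 575 other genes of at least 50 FPKM, 33 were lower (5.74%) and 32 higher (5.57%) at that p, and among the 217 shorter ones 17 were lower (7.83%) and 4 higher (1.84%). By voom, 0 members and 2 genes outside the family, Chgb and Ehhadh, passed an adjusted p of 0.05, and without Ctrl 1 limma called 1 gene, Phlda3. These 3 genes were named after their values were seen. All 3 cKO values lay below all 3 Ctrl values for 20 members (23.3%, background 6.03%) and above them for 1 (1.16%, background 7.11%). With FPKM rescaled to the reads on genes, 3 members were lower without overlap, Rpl30, Rpl4 and Rps3a3 (3.49%, against 3.21% of all genes), so the excess over all genes was seen with the deposited scaling and not with this one. Overlap is given below for FPKM as deposited unless stated.

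The number of members passing depended on single samples and on the scaling. The 17 lower members at an unadjusted p under 0.05 became 6 without Ctrl 1, 5 without Ctrl 2, 37 without Ctrl 3, 4 without cKO 1, 29 without cKO 2 and 5 without cKO 3. In the same order, the share of all genes lower at that p was 5.53%, 2.62%, 4.04%, 2.56%, 2.2% and 1.9%. The 20 lower members without overlap became 56 without Ctrl 3 (12.4% of all genes) and 47 without cKO 2 (9.97% of all genes), and the 1 higher member became 2 without cKO 1 (11.8% of all genes). Groups of 2 and 3 samples separate more often than 3 and 3, and without Ctrl 1, where 20 members were lower without overlap, the share of all genes was 14.7%. With FPKM rescaled to the reads on genes, 2 members were lower at an unadjusted p under 0.05, Rpl30 and Rpl22 (1.78% of all genes), and by voom 3 were, Rpl30, Rpl27a and Rpl4 (1.55% of all genes). Over all genes, the split of 919 higher and 651 lower genes at that p became 1404 and 377 with that rescaling and 1500 and 328 by voom. The lower count over all genes was 1173 without Ctrl 1 and 402 without cKO 3.

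**Figure D2:**
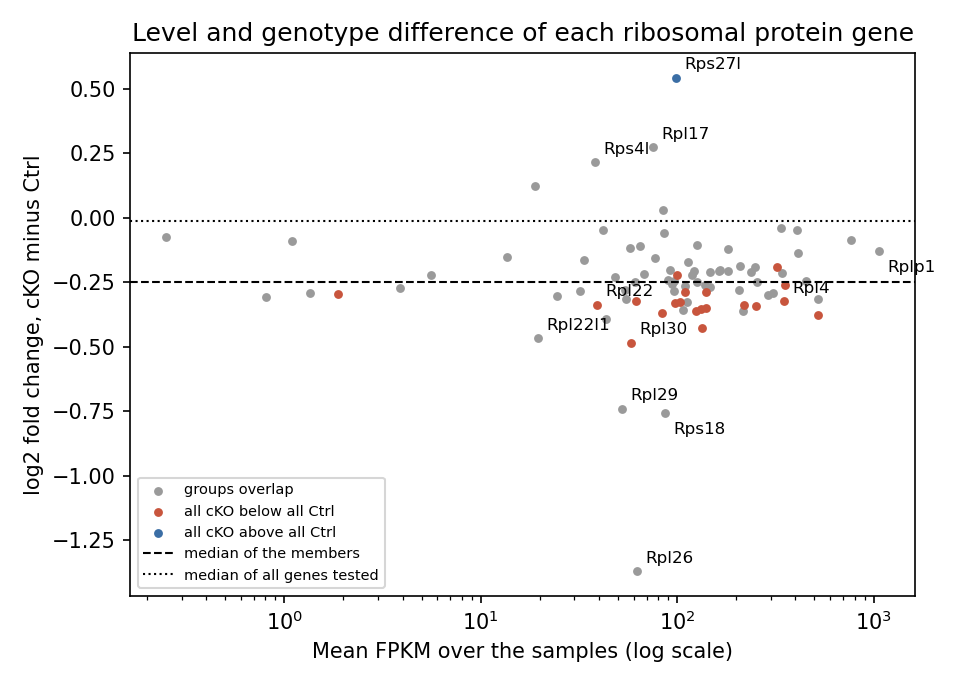
The log2 fold change of each of the 86 tested members (cKO minus Ctrl) is plotted against its mean FPKM on a log scale, with colours for members whose groups do not overlap, a dashed line at the members' median of -0.25 and a dotted line at the all-gene median of -0.01. Most members lie near the dashed line over the whole range of levels, and Rps27l stands alone among those with all cKO values above all Ctrl values.

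Both subunits had the same median log2 fold change, -0.25. For the large subunit 51 members were tested, of which 49 had a negative log2 fold change, 12 (23.5%, background 3.07%) were lower at an unadjusted p under 0.05 and 0 (background 4.33%) were higher. For the small subunit 35 were tested, 32 were negative, 5 (14.3%) were lower at that p and 1 (2.86%) was higher. The summed FPKM of the large subunit was 9082, 9069 and 7658 in Ctrl and 6702, 8105 and 7536 in cKO, and that of the small subunit was 6443, 6009 and 5200 in Ctrl and 4335, 5599 and 4999 in cKO. In both sums cKO 2 was above Ctrl 3, so the groups overlapped.

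Among large-subunit genes, Rpl30 had the smallest p of all members. Its product binds kink-turn RNA and also takes part in selenocysteine insertion. Rpl30, on chromosome 15, was listed at 63.9, 72.7 and 67.2 FPKM in Ctrl and at 44.2, 53.0 and 47.9 in cKO. All cKO samples lay below all Ctrl samples, with means of 67.9 ± 4.45 and 48.4 ± 4.45 (SD, n = 3). The log2 fold change was -0.48 with a standard error of 0.099 (adjusted p = 0.392 in limma), and it ranged from -0.55 to -0.42 when single samples were left out.

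Rpl22, a large-subunit protein that also binds cellular and viral RNAs and is needed in developing T cells, was listed at 44.6, 46.3 and 40.2 FPKM in Ctrl and at 31.9, 36.9 and 34.3 in cKO. Every cKO sample was below every Ctrl sample, and the log2 difference was -0.34 (adjusted p = 0.509 in limma). Rpl27a stood at 145, 144 and 131 FPKM in Ctrl and at 98.7, 119 and 108 in cKO. Its groups did not overlap either, cKO 1 was its lowest sample, and its log2 difference was -0.36 (adjusted p = 0.541 in limma). With any single sample left out, Rpl30, Rpl22 and Rpl27a each stayed under an unadjusted p of 0.05 (6 of 6 times). With FPKM rescaled to the reads on genes, however, Rpl27a did not pass that p and Ctrl 3 lay below cKO 2 for both Rpl22 and Rpl27a, and by voom Rpl22 did not pass. Rpl30 passed both ways and kept its groups apart.

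Rpl5, which with Rpl11 and the 5S rRNA forms the particle that binds MDM2, was listed at 101, 99.8 and 83.5 FPKM in Ctrl and at 67.3, 80.2 and 72.1 in cKO. The lowest Ctrl sample, Ctrl 3, was just above the highest cKO sample, cKO 2, and the log2 difference was -0.37 (adjusted p = 0.546 in limma). Rpl11 stood at 133, 140 and 110 FPKM in Ctrl and at 101, 123 and 103 in cKO, with cKO 2 above Ctrl 3. Rpl10a, a protein of the L1 stalk, was listed at 110, 118 and 97.0 FPKM in Ctrl and at 86.0, 89.2 and 82.2 in cKO. All its cKO values were below its Ctrl values, at a log2 difference of -0.33 (adjusted p = 0.545 in limma).

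Rpl4, whose long extension reaches into the wall of the exit tunnel, was the most abundant large-subunit member of this set at 392, 405 and 365 FPKM in Ctrl and 292, 327 and 309 in cKO. Its groups did not overlap, and its log2 difference was -0.32 (adjusted p = 0.597 in limma). The log2 fold changes of Rpl23a, a protein at the tunnel exit, and of Rpl7 were -0.43 and -0.36, and those of Rpl23, Rpl28 and Rpl6 were -0.33, -0.22 and -0.29. The groups of these 5 genes did not overlap. The last large-subunit gene at an unadjusted p under 0.05 was the paralog Rpl22l1, which alone among the 17 lower members had overlapping groups.

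Among small-subunit genes, the 5 lower at an unadjusted p under 0.05 included Rps24, Rps6, Rps26 and Rps4x. Rps6, the substrate of the S6 kinases downstream of mTORC1, was listed at 288, 307 and 249 FPKM in Ctrl and at 206, 230 and 228 in cKO, a log2 difference of -0.34 (adjusted p = 0.606 in limma). Its cKO samples were all below its Ctrl samples, and cKO 1 was the lowest. Rps24, which is needed for maturation of the small-subunit rRNA and is mutated in some patients with Diamond-Blackfan anemia, stood at 70.6, 72.7 and 61.8 FPKM in Ctrl and at 50.3, 61.2 and 52.0 in cKO, a log2 difference of -0.32 (adjusted p = 0.590 in limma). Ctrl 3 and cKO 2 were the nearest pair and did not cross. The log2 fold changes of Rps26, a protein at the mRNA exit channel, and of the X-linked Rps4x were -0.35 and -0.34. Rps3a1, the most abundant small-subunit member, was listed at 583, 652 and 527 FPKM in Ctrl and at 391, 506 and 460 in cKO, without overlap, at a log2 difference of -0.38 (adjusted p = 0.682 in limma).

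**Figure D3:**
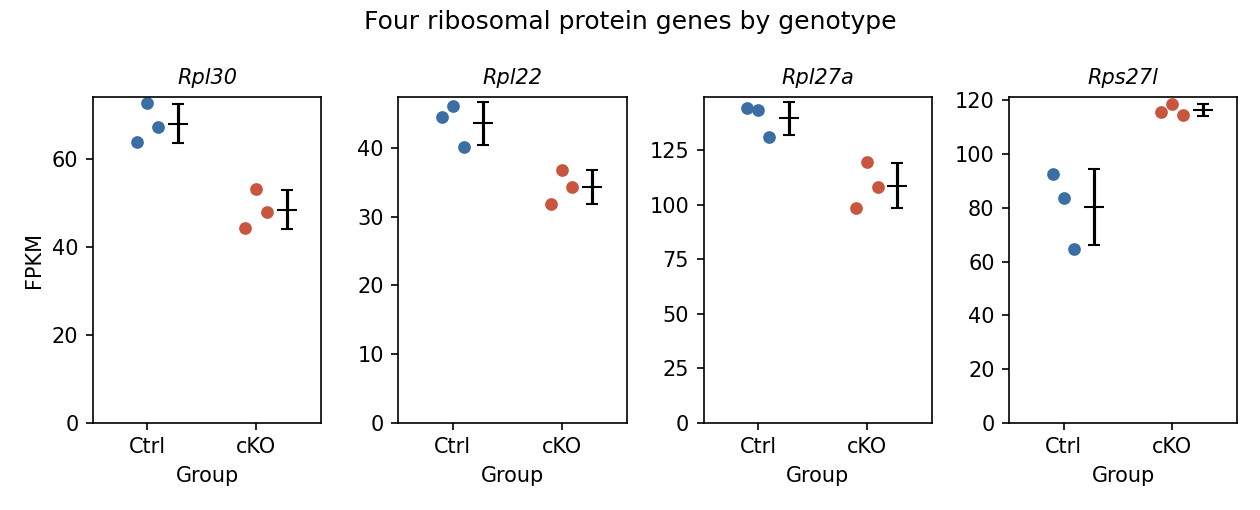
FPKM of Rpl30, Rpl22, Rpl27a and Rps27l in each of the 3 Ctrl and 3 cKO samples, with the group mean and SD beside the points and axes starting at 0. In the first 3 genes every cKO point is below every Ctrl point, and in Rps27l every cKO point is above.

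Rps27l was the member with the opposite difference. It encodes a paralog of Rps27 and is known as a transcriptional target of p53. Rps27l, on chromosome 9, was listed at 92.7, 83.7 and 64.8 FPKM in Ctrl and at 116, 119 and 114 in cKO. The 3 cKO samples lay close together and above all Ctrl samples, with means of 80.4 ± 14.2 in Ctrl and 116 ± 2.23 in cKO (SD, n = 3). The log2 fold change was 0.54 with a standard error of 0.140 (adjusted p = 0.478 in limma). It ranged from 0.40 to 0.65 when single samples were left out, and Rps27l passed an unadjusted p under 0.05 in 17 of 17 alternative fits.

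The 3 other p53 targets given here were picked after values had been seen and come from no fixed list, so no count over p53 targets can be given. Over all genes, 7.11% had all cKO values above all Ctrl values. Cdkn1a, the cell cycle inhibitor p21, was listed at 23.9, 5.40 and 8.61 FPKM in Ctrl and at 46.7, 36.1 and 47.7 in cKO, and the cKO samples were all higher (adjusted p = 0.454 in limma). Ccng1 stood at 40.1, 18.4 and 17.3 FPKM in Ctrl and at 57.8, 47.8 and 59.5 in cKO, and Mdm2, the ubiquitin ligase of p53, at 11.2, 9.56 and 9.82 in Ctrl and at 13.9, 11.9 and 11.9 in cKO. Neither gene overlapped between the groups, and their adjusted p in limma was 0.481 and 0.622. Whether Rps27l and these genes share a cause was not tested.

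The other 4 members with a positive log2 fold change were Rpl17 (0.27), Rps4l (0.21), Rpl21 (0.12) and Rps27a (0.03), all with overlap. Without cKO 2 the values of Rpl17, Rpl21 and Rps27a were negative, at -0.03, -0.12 and -0.25. Without Ctrl 3 those of Rpl21 and Rps27a were -0.02 and -0.21, and without Ctrl 1 that of Rps27a was -0.02. That of Rps4l stayed positive and ran from 0.06 to 0.33 when single samples were left out. With reads on matched copies added, as described below, Rpl17 had a log2 fold change of -0.28 with all cKO values below all Ctrl values, and most of the combined reads lay on its copies. Rpl21 then had -0.09, with 54.8% of the reads on copies, and Rps27a had -0.0034. Rps4l had no matched copy.

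Several ribosomal proteins have a paralog with a restricted pattern of expression, and the share of the paralog was computed as its FPKM in percent of the sum with its partner. Of 7 pairs, 5 were above 0.1 FPKM on both sides and were compared by an exact two-sided permutation test, for which 3 against 3 samples cannot give less than 0.1. Rps4l made up 11.0%, 12.1% and 14.5% of the sum with Rps4x in Ctrl and 16.3%, 19.1% and 16.7% in cKO. All cKO shares were above all Ctrl shares, with means of 12.5 ± 1.78 and 17.4 ± 1.49 percent (SD, n = 3, exact permutation p = 0.1, the smallest possible, 0.333 after Benjamini-Hochberg adjustment over the 5 pairs).

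Rps27l made up 22.8%, 33.9% and 20.2% of its sum with Rps27 in Ctrl and 45.5%, 33.9% and 37.4% in cKO. Ctrl 2 and cKO 2 met at the same share (exact permutation p = 0.2, adjusted 0.333). With reads on matched copies of each gene added, as described below, the shares were 19.9%, 19.8% and 18.4% in Ctrl and 34.0%, 25.3% and 32.3% in cKO, and the groups no longer met. The mean share of Rpl7l1 with Rpl7 was 8.85% in Ctrl and 9.98% in cKO (exact permutation p = 0.2, adjusted 0.333), that of Rpl22l1 with Rpl22 was 34.1% and 31.8% (exact permutation p = 0.6, adjusted 0.75), and that of Rpl3l with Rpl3 was 0.243% and 0.252% (exact permutation p = 1). Rpl22l1 was listed at 19.8, 28.3 and 20.3 FPKM in Ctrl and at 14.3, 20.4 and 14.0 in cKO, a log2 difference of -0.47 (adjusted p = 0.670 in limma). Ctrl 2 was its highest sample, and cKO 2 lay just above Ctrl 1 and Ctrl 3. Rpl10l and Rpl39l, which are testis forms, were too low to compare.

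Ribosomal protein genes have many processed copies in the mouse genome, and short reads from a gene and its copy can be hard to separate. Of the 89 members, 6 are themselves annotated as pseudogenes (Rps3a2, Rps3a3, Rpl6l, Rpl32l, Rps4l and Rps12l1). Transcripts of genes outside the list were matched to the coding transcripts of the members at 90% identity over at least 80% of their length and at least 200 bases. This gave 1015 copies of 76 members, 993 annotated as pseudogenes and 22 under other types, and 158 of the copies had a mean of at least 1 FPKM. The copies held 9.74%, 10.7% and 10.4% of the combined reads of members and copies in Ctrl and 10.3%, 10.5% and 8.98% in cKO. For 45 tested members the copies held under 5% of the reads, and for 6 they held over 50%.

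Several of the members that varied most between samples had abundant copies. Rpl26 was listed at 42.5, 114 and 63.6 FPKM in Ctrl and at 37.6, 3.23 and 114 in cKO, and its copy Gm15772, of 99.5% identity, at 538, 306 and 386 in Ctrl and at 368, 606 and 164 in cKO. cKO 2 was the lowest sample for Rpl26 and the highest for Gm15772, and Ctrl 2 and cKO 3, the highest for Rpl26, were the lowest for Gm15772. For Rpl26 alone the highest sample was 35.4 times the lowest, and with reads on its 12 copies added this ratio was 1.39. The combined level in RPM (reads divided by the scaling total) was then 299, 301 and 263 in Ctrl and 217, 272 and 239 in cKO, with cKO 2 above Ctrl 3.

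Rpl29, a heparin-binding protein of the large subunit, ranged from 0.766 FPKM in cKO 2 and 3.84 in Ctrl 3 to 100 in cKO 3 and 130 in Ctrl 1, a ratio of 170 that became 3.77 with its copies. Its log2 fold change of -0.74 was 0.31 without Ctrl 1 and 0.96 without cKO 2. Rps18 was listed at 165, 87.2 and 70.6 FPKM in Ctrl and at 29.0, 72.7 and 97.3 in cKO, and its copy Gm11361, annotated as protein coding, at 9.54, 81.5 and 69.2 in Ctrl and at 88.5, 81.7 and 41.9 in cKO. Ctrl 1 was highest for Rps18 and lowest for Gm11361, and the ratio of the highest to the lowest sample went from 5.68 to 3.26 with copies added. Rps10 carried few reads of its own, and 97.2% of the combined reads lay on its copies, with Rps10-ps2 at 196, 186 and 172 FPKM in Ctrl and 145, 168 and 145 in cKO. All cKO values of Rps10-ps2 were below all Ctrl values.

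**Figure D4:**
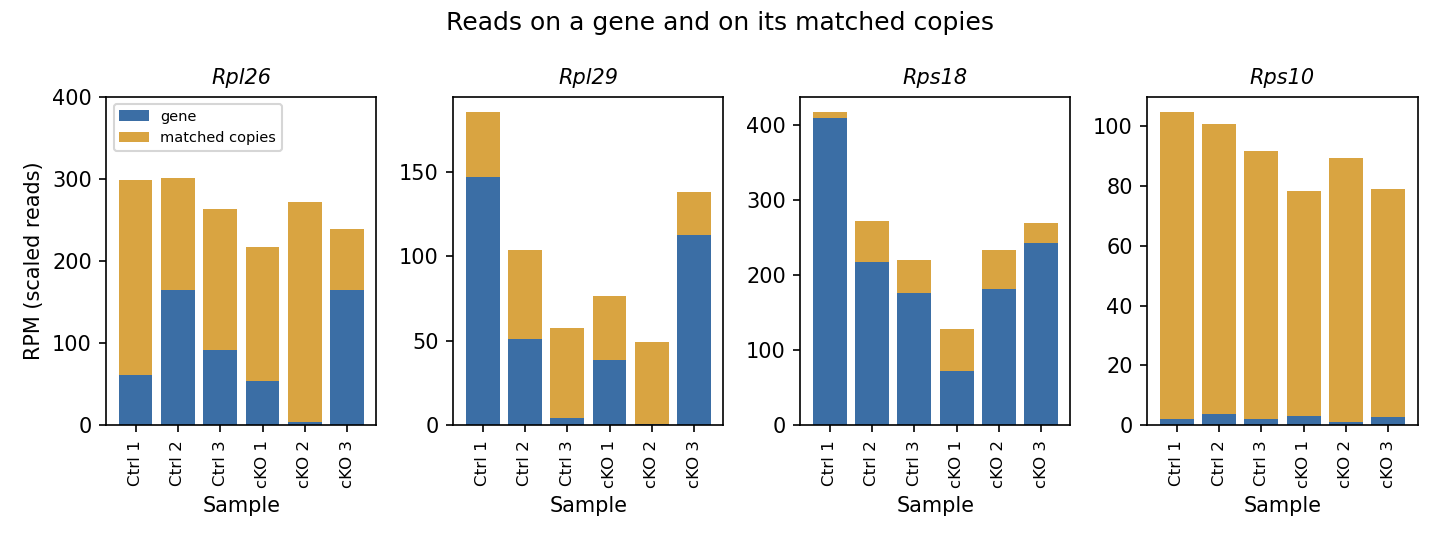
RPM on Rpl26, Rpl29, Rps18 and Rps10 (blue) and on their matched copies (yellow, stacked above) in each of the 3 Ctrl and 3 cKO samples. For Rpl26 the split between gene and copies differs from sample to sample while the stacked height spans a ratio of 1.39, and for Rps10 the copies hold 97.2% of the reads.

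Over the 86 tested members, 13 had a ratio above 2 between the highest and the lowest sample, and 4 did once the copies were added. With copies added, the median log2 fold change was -0.26, 84 members were negative, and 24 were lower and 1 higher without overlap, Rps27l being the higher. The share of all genes without overlap is known for values without copies only (6.03% lower, 7.11% higher). The 399 genes described in the annotation as ribosomal protein pseudogenes included 144 that were tested, of which 17 were lower (11.8%, background 3.07%) and 3 higher (2.08%, background 4.33%) at an unadjusted p under 0.05 and 0 passed an adjusted p of 0.05 in limma. Their median log2 fold change was -0.13, and 93 were negative.

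Of 5 ribosomal or ribosome-bound proteins whose names the rule does not match, Rack1, the scaffold protein on the small-subunit head, was the 1 that was lower at an unadjusted p under 0.05. It was listed at 85.0, 73.4 and 68.0 FPKM in Ctrl and at 57.2, 64.9 and 62.6 in cKO, with no overlap and a log2 difference of -0.29 (adjusted p = 0.641 in limma), but with FPKM rescaled to the reads on genes its groups overlapped. Fau, which encodes Rps30 fused to a ubiquitin-like protein, stood at 390, 339 and 265 FPKM in Ctrl and at 255, 300 and 287 in cKO, and its groups overlapped. Rps27rt, a copy of Rps27, varied from 91.0 FPKM in Ctrl 3 to 488 in Ctrl 2, and Rpl36al was low in all samples, with a highest value of 5.87. The median log2 fold change of the 5 was 0.03, and its sign turned with single samples: it was -0.36 without Ctrl 3, -0.11 without cKO 2 and -0.05 without cKO 1.

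Translation elongation factors and other TOP mRNAs, 17 in all, had a median log2 fold change of -0.18 (-0.09 with FPKM rescaled to the reads on genes), and 16 of the 17 were negative. At an unadjusted p under 0.05, 3 were lower and 0 higher, and 0 passed an adjusted p of 0.05 in limma. Eif3f was listed at 31.9, 33.5 and 33.1 FPKM in Ctrl and at 26.9, 25.3 and 26.3 in cKO, a log2 difference of -0.32 (adjusted p = 0.406 in limma). Its samples lay close together within each group and did not overlap between groups. The other 2 were Eif3e (-0.26), another subunit of the initiation factor that binds the small subunit, and Hnrnpa1 (-0.21), a splicing regulator. Eef1a1, the factor that brings aminoacyl-tRNA to the ribosome and the most abundant of the list, stood at 1003, 1068 and 1021 FPKM in Ctrl and at 861, 885 and 890 in cKO (adjusted p = 0.816 in limma). All its cKO values were below all its Ctrl values, and its log2 difference was -0.23 with a standard error of 0.151.

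Of 29 further initiation factors, 2 were higher and 2 lower at an unadjusted p under 0.05. Eif4a2, an RNA helicase of the cap-binding complex, was listed at 101, 117 and 126 FPKM in Ctrl and at 83.5, 86.3 and 91.0 in cKO, a log2 difference of -0.39 (adjusted p = 0.508 in limma), and Eif3m had -0.20. The scaffold gene Eif4g1 was listed at 44.9, 40.7 and 42.0 FPKM in Ctrl and at 55.5, 49.7 and 48.2 in cKO, a log2 difference of 0.26 (adjusted p = 0.590 in limma), and Eif4g3 had 0.30. None of these 4 genes overlapped between the groups, except Eif3m with FPKM rescaled to the reads on genes.

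Genes that build ribosomes or control their synthesis were counted in the same way. Of 68 biogenesis factors, 1 was lower at an unadjusted p under 0.05, Emg1, a methyltransferase of the small-subunit rRNA (-0.25), and 0 were higher. Of 21 regulators of TOP mRNAs and ribosomal protein synthesis, such as Larp1, Mtor and Myc, 0 passed in either direction. Of 78 mitochondrial ribosomal protein genes, 77 were tested and 2 were lower at that p, Mrpl46 (-0.26) and Mrpl22 (-0.25). The medians of the initiation, biogenesis, regulator and mitochondrial lists were -0.03, -0.02, 0.00 and -0.04, and they were positive, at 0.05, 0.06, 0.06 and 0.03, with FPKM rescaled to the reads on genes. With single samples left out they ran from -0.08 (Ctrl 3) to 0.07 (Ctrl 1), from -0.10 (Ctrl 3) to 0.06 (Ctrl 1), from -0.05 (cKO 1) to 0.06 (Ctrl 3) and from -0.13 (Ctrl 3) to -0.01 (Ctrl 2). In limma 0 genes of any of these lists passed an adjusted p of 0.05.

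Over the 6 companion lists together, 217 genes were tested, of which 9 (4.15%, background 3.07%) were lower and 2 (0.922%, background 4.33%) higher at an unadjusted p under 0.05. The elongation and TOP list held 3 of the lower genes (17.6% of its 17), and 7 of the 17 were lower without overlap (41.2%, background 6.03%, and 2 or 11.8% with FPKM rescaled to the reads on genes, against 3.21% of all genes), while the other 5 lists held 6 of 200 (3%). The lower count was 3 without Ctrl 2 (1.38%, against 2.62% of all genes) and 21 without Ctrl 3 (9.68%, against 4.04% of all genes). It was 2 without cKO 1 (0.922%, against 2.56% of all genes) and 16 without cKO 2 (7.37%, against 2.2% of all genes). Without cKO 3 it was 3 (1.38%, against 1.9% of all genes), and without Ctrl 1 the lower share was 3.23%, against 5.53% of all genes. The higher count was 8 without Ctrl 1 (against 5.9% of all genes). It was 1 without Ctrl 2, cKO 1 or cKO 2 (against 3.34%, 4.11% and 3.6% of all genes).

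Markers of other cell types differed between samples. The 11 acinar genes, led by Ctrb1, summed to 14884, 22074 and 8233 FPKM in Ctrl and to 37080, 10101 and 31130 in cKO. All 11 had a higher mean in cKO but 0 passed an unadjusted p under 0.05. The acinar sum was highest in cKO 1 and cKO 3, the 2 samples with the lowest ribosomal protein sums. The other samples did not keep this order: Ctrl 2, next in acinar sum, had a high ribosomal protein sum (15078 FPKM). Ctrl 3, lowest in acinar sum, had a smaller one (12858 FPKM). The 8 beta cell genes, led by Ins2, summed to 235583, 268235 and 275864 FPKM in Ctrl and to 195053, 204821 and 217242 in cKO, with 7 negative and 1, Ucn3, lower at that p. The groups did not overlap in the beta cell sum, and Ins2 carried this: without Ins2 the sum was 80705, 97748 and 97188 FPKM in Ctrl and 86023, 80635 and 84297 in cKO, with overlap. Ins1 had a log2 fold change of -0.04, and G6pc2 was listed at 1092, 1266 and 992 FPKM in Ctrl and at 1428, 1476 and 1422 in cKO, higher in every cKO sample (adjusted p = 0.720 in limma). Iapp was listed at 17011, 23853 and 20792 FPKM in Ctrl and at 14109, 14450 and 13486 in cKO, lower in every cKO sample. Its log2 fold change was -0.54 (adjusted p = 0.896 in limma). In this fit part of each standard error is set by the level of the gene, and for Ins2 the standard error was 2.87 at a log2 fold change of -0.46. A high p at such levels does not show that a difference is absent. In the beta cell list 2 genes were lower and 1 higher without overlap. The part of these genes in the ribosomal protein values was not tested.

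Ctrl 1 stood apart in the sums of immune and dividing-cell genes and was also the sample with the highest ribosomal protein sum. The 5 macrophage genes, led by Lyz2, summed to 700, 88.8 and 80.5 FPKM in Ctrl and to 125, 159 and 165 in cKO. The 5 T cell genes, led by Lck, summed to 13.0 FPKM in Ctrl 1 and to between 1.50 and 3.56 in the other samples, the 5 B cell genes, led by Jchain, to 97.0 in Ctrl 1 and to between 17.2 and 31.9 elsewhere, and the 5 dividing-cell genes, led by Top2a, to 11.6 in Ctrl 1 and to between 1.47 and 3.23 elsewhere. Of these genes 1 was lower at an unadjusted p under 0.05, the B cell gene Cd79a, at 29.6, 12.5 and 9.28 FPKM in Ctrl and 5.43, 6.24 and 6.91 in cKO, with all cKO values below all Ctrl values. Jchain and the T cell gene Trac were not highest in Ctrl 1. Jchain was listed at 18.9 FPKM in Ctrl 1, 25.1 in cKO 2 and 19.5 in cKO 3, and Trac at 1.47 in Ctrl 1 and 1.95 in cKO 3. Without Ctrl 1 the median log2 fold change of the members was -0.18, and the part of these cells in the result was not tested.

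The remaining marker lists are given by their sums and counts. The 6 stromal genes, led by Dcn, summed to 15.9, 7.96 and 11.9 FPKM in Ctrl and to 13.3, 39.4 and 39.7 in cKO, and the 5 endothelial genes, led by Plvap, to 107, 94.6 and 106 in Ctrl and to 116, 131 and 147 in cKO. In each of these lists 2 genes were higher at an unadjusted p under 0.05 and 0 lower. The 5 alpha cell genes, led by Gcg, summed to 11076, 12482 and 16342 FPKM in Ctrl and to 8753, 16308 and 12793 in cKO, and 2 were higher at that p. The 2 delta cell genes, led by Sst, the PP cell gene Ppy, the 5 duct genes (1 higher, Cftr, and 1 lower, Krt7) and the 3 nuclear-retained RNAs, led by Malat1, had sums that overlapped between the groups. No gene of the marker lists was at 0 in every sample, and the part of these genes in the ribosomal protein values was not tested.

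The members are spread over 19 chromosomes, with 15 on chromosome 7, 8 on chromosome 17 and 4 on the X (Rpl10, Rpl36a, Rpl39 and Rps4x). What the rule did not use, their start sequences, could be read for 64 of the 89 members from RefSeq promoters of GRCm38.p6, which run from 250 bases before the annotated start to 50 after it. A TOP-like start was searched on the sense strand as a C followed by at least 5 bases that are each C or T, beginning within 5 bases of the annotated start. It was present in 27 of 64 members (42.2%) and in 11.9% of 27025 gene symbols with a promoter, and in 6 of the 14 matched members past an unadjusted p under 0.05 (42.9%), a share near that of all members. The search rests on annotated starts, so a run that was not found does not show that the mRNA lacks a TOP sequence. CCGGAAG, the core bound by ETS factors, was found on either strand in 26 of 64 members (40.6%) and 9.93% of all symbols, and ATGGCG, the core bound by YY1, in 21 (32.8%) and 10.2%. Members with a missing entry included Rpl17, Rpl21, Rpl23a, Rpl29, Rpl3, Rpl30, Rpl32, Rpl36, Rpl6l, Rpl7, Rpl8, Rplp1, Rps12l1, Rps14, Rps20, Rps27a, Rps29, Rps3a2, Rps3a3 and Rps4l.

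Of the 13 lower members with a promoter, 6 carried the run and 7 did not. The start windows below show what the feature looks like in the 6 that carry it, with the pyrimidine run in capitals, and 3 windows where the search found none, those of Rpl22, Rpl10a and the higher member Rps27l. Each runs 5′ to 3′ on the gene's own strand. They lie in RefSeq GRCm38.p6 at chr7:109519185-109519214 (plus strand) for Rpl27a, chr14:24490668-24490697 (plus) for Rps24, chr4:86857348-86857377 (minus) for Rps6, chr10:128626487-128626516 (minus) for Rps26, chr7:4792955-4792984 (plus) for Rpl28, chr3:28805498-28805527 (plus) for Rpl22l1, chr4:152325716-152325745 (plus) for Rpl22, chr17:28328461-28328490 (plus) for Rpl10a and chr9:66946076-66946105 (plus) for Rps27l.
Rpl27a: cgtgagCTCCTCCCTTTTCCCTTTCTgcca
Rps24: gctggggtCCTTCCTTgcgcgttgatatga
Rps6: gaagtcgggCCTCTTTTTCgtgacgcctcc
Rps26: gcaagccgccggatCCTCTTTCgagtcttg
Rpl28: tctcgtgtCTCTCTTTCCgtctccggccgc
Rpl22l1: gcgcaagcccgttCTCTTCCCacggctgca
Rpl22: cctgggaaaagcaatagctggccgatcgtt
Rpl10a: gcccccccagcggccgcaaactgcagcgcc
Rps27l: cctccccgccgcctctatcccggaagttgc

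Many ribosomal protein genes host small nucleolar RNAs in their introns, and 58 annotated snoRNAs lay inside the spans of 30 members on the same strand. Of these, 33 were listed at 0 in every sample, 24 were tested and 20 had a mean of at least 1 FPKM. The most abundant was Snord72, inside Rpl37, at 7.78, 15.7 and 5.94 FPKM in Ctrl and at 12.7, 12.8 and 5.46 in cKO. Its groups overlapped. At an unadjusted p under 0.05, 1 of the 24 tested snoRNAs passed (background 3.07% lower and 4.33% higher). This was Snora21, inside Rpl23, which was lower, at 0.418, 1.86 and 2.63 FPKM in Ctrl and 0.416, 0 and 0 in cKO. Snora21 is 137 bases long, had a mean of 0.887 FPKM and was named after its values were seen.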

How the data were processed

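Islet RNA-seq of 3 Ctrl and 3 cKO samples was used as deposited: FPKM per gene computed by the authors, on GRCm38 (mm10) per the submitters' processing notes. The aligner and counter are not given in the sources used here. In R 4.3.3, limma 3.58.1 (empirical Bayes with trend, two-sided, Benjamini-Hochberg) compared the groups on log2(FPKM + 1) where the mean over the samples reached 0.1 FPKM, and was tested on simulated data. FPKM were whole multiples of a step per sample (100% within 0.05), which gave reads (16289408 to 17944775 on genes per sample) and the scaling totals behind the FPKM (15731223 to 18085944, not library sizes), so that 1 FPKM on 1 kilobase was about 16 to 18 reads. Copies were found with blastn 2.17.0 on GENCODE M21 transcripts, and Python 3.11.15 made the other values. Members and lists were chosen with earlier results of these data known. The genes named were the 5 highest and 5 lowest in level, at most 10 per direction with the smallest p, the 5 highest and 5 lowest log2 fold changes at a mean of at least 1 FPKM, paralogs and partners, list genes past p (at most 5), each list's most abundant gene, and Parn, Ins1 and Ins2. Further genes, among them other members lower at an unadjusted p under 0.05, Rpl11, copies, snoRNAs, markers and p53 targets, were named after their values were seen. The alternatives changed the pseudocount (0.1, 0.5), the filter, the prior, the scaling, the tool (voom), a block on sample number, and left out each sample.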

Additional observations from a re-analysis of the deposited data

How the results depend on the processing

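The negative sign of the members' median log2 fold change (-0.25) and of the log2 ratio of summed FPKM (-0.22) held in every alternative run, and 1 member was higher at an unadjusted p under 0.05 in each. Without Ctrl 3 and cKO 2, an alternative chosen after seeing the data, the median was -0.40, the log2 ratio -0.38, and 46 members were lower (3.8% of all genes). Ctrl 3 had the lowest member sum of the Ctrl samples and cKO 2 the highest of the cKO samples, so the direction of this shift followed from the choice. With FPKM rescaled to the reads on genes, also chosen after seeing the data, 2 members were lower (1.78% of all genes), 3 were lower without overlap (3.21% of all genes), 1404 genes were higher and 377 lower over all genes, and the all-gene median was 0.037. At that scaling 5 companion-list genes were higher (6.62% of all genes) and 2 lower (1.78% of all genes). By voom 3 members were lower (1.55% of all genes), 1500 genes were higher and 328 lower, and 2 passed an adjusted p of 0.05. With that tool 7 companion-list genes were higher (7.07% of all genes) and 2 lower (1.55% of all genes). With replicate number as a block, which the labels do not call pairs and which joins samples correlated at -0.171 to -0.0219, 11 members were lower (2.54% of all genes) and 4 companion-list genes higher (3.47% of all genes). Without a trend, and scaled without Ins1 and Ins2, 1 companion-list gene was higher. Leaving out each sample gave 4 to 37 lower members, 20 to 56 lower and 1 to 2 higher without overlap, 402 to 1173 lower genes, 0 to 1 past an adjusted p, and 1 to 8 higher and 2 to 21 lower companion-list genes. The log2 fold change of Ins1 (-0.04) was 0.052 by voom and with reads-on-genes scaling. With samples left out it ran from -0.11 to 0.0185 for Ins1, -2.08 to 0.96 for Rpl29, -0.030 to 0.57 for Rpl17, -0.12 to 0.40 for Rpl21 and -0.25 to 0.31 for Rps27a. The causes were not tested. Median-of-ratios factors were 1 in every sample, so that scaling gave the same values.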
